A study of Mus musculus with 2 samples.

Results

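The miR-7 family of the mouse comprises 3 microRNA genes, Mir7-1, Mir7-2 and Mir7b, chosen by their gene names in GENCODE M21 from 2202 microRNA genes counted in the cerebral cortex. Small RNAs shorter than 30 nt were sequenced from total RNA of the left cerebral cortex in 2 libraries, which form the sole group. Both came from female B6CASTF1/J mice (a first-generation cross of C57BL/6J and the wild-derived CAST/EiJ), 25 days of age, and the labels name no treatment. The labels call them separate biological replicates, yet both carry 1 donor record, so the spread between them may be partly technical. Each library is whole tissue and mixes neurons, glia and vessels, so fewer expressing cells and less microRNA per cell cannot be told apart, and no count places a Mir7 gene in a cell type. The design sets no condition against another.

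miR-7 is among the oldest conserved animal microRNAs. In mammals it is known from neurons and from endocrine cells of the pituitary and pancreatic islets, where it represses mRNAs that pair with its seed, the bases of a microRNA that set most of its targets. In the brain it forms a circuit of noncoding RNAs: the circular RNA Cdr1as carries many miR-7 sites, miR-671 directs the cleavage of Cdr1as, and the long noncoding RNA Cyrano triggers the decay of miR-7.

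Each gene makes a hairpin precursor, from which a 5p and a 3p strand can be cut. The mature strands are shown because they decide which family members a short read can tell apart. They are taken from RefSeq (build GRCm38.p6, the reference assembly behind mm10), where all 3 genes had an entry, and are written 5′ to 3′ with the seed (bases 2 to 8) in capitals.
miR-7a-5p (Mir7-1 and Mir7-2): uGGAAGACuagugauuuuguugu
miR-7b-5p (Mir7b): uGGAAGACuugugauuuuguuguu
miR-7a-1-3p (Mir7-1): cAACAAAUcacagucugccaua
miR-7a-2-3p (Mir7-2): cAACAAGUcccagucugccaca
miR-7b-3p (Mir7b): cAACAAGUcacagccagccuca

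The 5p strand of Mir7-1 is identical to that of Mir7-2 over all 23 nt. The 5p strand of Mir7b has 24 nt and differs from them over the first 23 nt by A10U alone (miR-7a-5p first, positions counted from 1 at the 5′ end), which lies outside the seed. All 3 genes therefore share the 5p seed, and no other gene among the 1738 mature entries of the RefSeq table has it. The 3p strands differ more. miR-7a-1-3p and miR-7a-2-3p differ by A7G, A10C and U21C, and the first of these falls in the seed. miR-7b-3p differs from miR-7a-2-3p by A10C, C14U, A16U and U20A, all outside the seed, so the 3p seed is shared by Mir7-2 and Mir7b and by no other entry, while that of Mir7-1 was found in Mir7-1 alone.

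The hairpins show how far the identity reaches beyond the strands, with the mature strands in capitals.
Mir7-1: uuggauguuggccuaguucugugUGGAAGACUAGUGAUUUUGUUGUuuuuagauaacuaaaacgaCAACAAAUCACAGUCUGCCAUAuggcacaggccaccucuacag
Mir7-2: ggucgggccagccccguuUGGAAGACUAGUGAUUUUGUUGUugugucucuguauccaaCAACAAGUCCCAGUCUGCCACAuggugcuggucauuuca
Mir7b: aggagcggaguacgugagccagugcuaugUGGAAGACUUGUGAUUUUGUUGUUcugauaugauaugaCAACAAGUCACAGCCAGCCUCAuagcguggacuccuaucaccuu

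Mir7-1 and Mir7-2 share a stretch of 24 nt, made up of the whole 5p strand and the next base on its 3′ side. Outside it the sequences part at once, with G before the strand in Mir7-1 and U in Mir7-2. The longest stretch that Mir7b shares with either of them is 14 nt, the end of its 5p strand. Over the whole hairpin, Mir7-1 and Mir7-2 were 68.8% identical in a global alignment, Mir7-1 and Mir7b 66.9%, and Mir7-2 and Mir7b 64.3%. When each hairpin was cut into every possible window of 20 nt, 5 of 89 windows of Mir7-1 and 5 of 78 of Mir7-2 occurred in a second counted hairpin, in each case the other of the pair. None of the 92 windows of Mir7b did. All 4 windows inside the 5p strand of Mir7-1 were shared, as were all 4 of Mir7-2, and none of the 3 windows inside any 3p strand was.

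**Figure D1:**
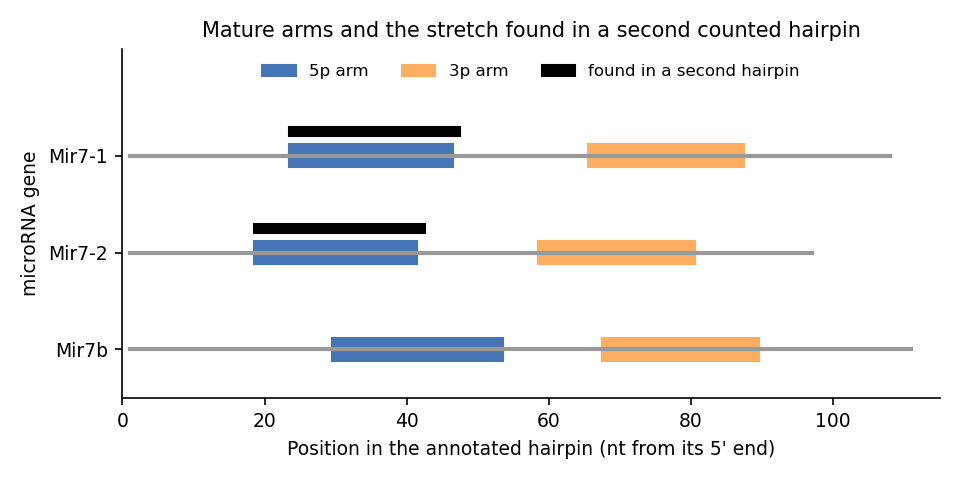
Maps of the 3 annotated hairpins, with position from the 5′ end in nt on the x axis. Boxes mark the 5p and 3p strands, and black bars mark bases covered by 20-nt windows that occur in a second counted hairpin. The bars cover the 5p strand of Mir7-1 and of Mir7-2, and Mir7b has none.

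The 3 genes lie on separate chromosomes of mm10. Mir7-1 (ENSMUSG00000065434.1) spans 58392779 to 58392886 of chromosome 13 on the minus strand, inside an intron of Hnrnpk, which encodes a widely expressed RNA-binding protein and is transcribed from the same strand. It overlaps no annotated exon, and the closest Hnrnpk exons are 302 and 233 nt away on its 3′ and 5′ sides. Mir7-2 (ENSMUSG00000065609.1) spans 78888277 to 78888373 of chromosome 7 on the plus strand, where it overlaps no other annotated gene. Its closest annotated neighbour is Aen, 7480 nt away on the same strand. Mir7b (ENSMUSG00000065491.1) spans 56242988 to 56243098 of chromosome 17 on the plus strand and also overlaps no gene. It lies 182 nt beyond the end of the long noncoding RNA gene AC026385.1 on the same strand, and its closest protein-coding gene outside that is Fem1a at 13711 nt. The closest other annotated microRNA gene is 79.6 kb away from Mir7-1, 617 kb from Mir7-2 and 70.9 kb from Mir7b, so none of them stands beside another microRNA hairpin.

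The libraries held 8491339 and 9289252 reads in replicates 1 and 2, of which 3017058 and 3209361 fell within microRNA genes on their own strand. Levels are these counts scaled to library size (CPM). Multi-locus reads, which match more than 1 place, stand outside every gene count and made up 40.3% and 39.0% of reads. Detection was set at 10 counts or more in each library. All 3 Mir7 genes passed it, against 17.9% of all counted genes. Their counts come from small RNA reads and do not separate the strands of a hairpin, so they are levels of genes and not of miR-7 itself. For a read confined to the 5p strand, Mir7-1 and Mir7-2 cannot be told apart by sequence, while 5p reads of Mir7b that cover position 10 can be told from both. A 5p read that matches both Mir7-1 and Mir7-2 is multi-locus and thus counted for neither, so the counts of this pair and of Mir7b do not cover the same parts of the hairpin. How much of the multi-locus class is miR-7a-5p was not tested.

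Mir7b supplied nearly all of the family's counts, and Mir7-2 and Mir7-1 were more than an order of magnitude lower. Mir7b had 7723 counts in replicate 1 and 6728 in replicate 2, or 2560 CPM (exact Clopper-Pearson 95% interval 2503 to 2617) and 2096 CPM (2047 to 2147). Its mean was 2328 ± 328 CPM (SD, n = 2), rank 63 of 2202 genes. In mice miR-7b has been described in the hypothalamus.

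Mir7-2, known in mice from pituitary and islet cells, had 233 counts in replicate 1 and 511 in replicate 2, or 77.2 CPM (67.6 to 87.8) and 159 CPM (146 to 174). It averaged 118 ± 58.0 CPM (SD, n = 2), rank 194, and its intervals in the libraries do not overlap. Mir7-1, the copy within Hnrnpk, had 148 and 178 counts, or 49.1 CPM (41.5 to 57.6) and 55.5 CPM (47.6 to 64.2). It averaged 52.3 ± 4.53 CPM (SD, n = 2), rank 229, and its intervals in the libraries overlap. The values of the 3 genes do not overlap in any pair over the 2 libraries.

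Against the 395 detected genes, whose median mean level was 101 CPM, Mir7b was 23.1-fold above the median, Mir7-2 1.17-fold above it, and Mir7-1 at 0.519 of it. The side on which Mir7-2 lay differed between the libraries, at 0.774 of the median of 99.8 CPM in replicate 1 and 1.40 times the median of 113 CPM in replicate 2. By count, 84.1% of detected genes were lower than Mir7b, 50.9% lower than Mir7-2 and 42.0% lower than Mir7-1. Every member stood clear of the floor of 3 counts, which is 0.994 CPM in replicate 1 and 0.935 CPM in replicate 2. None of the members had a read on the opposite strand in either library, which also held for 367 of the 395 detected genes.

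**Figure D2:**
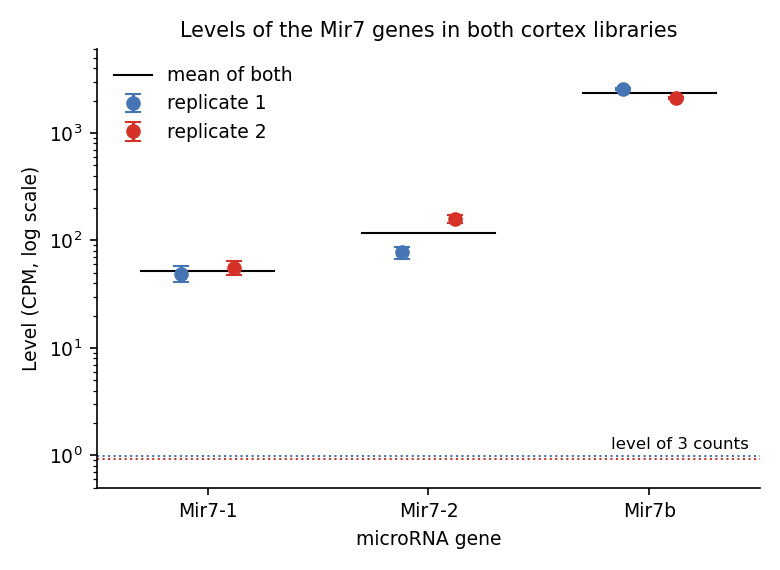
Level of each Mir7 gene in CPM on a log axis. Points are the libraries with exact 95% counting intervals, black lines are means of both libraries, and dotted lines are the level of 3 counts in each library. Mir7b lies at 2096 and 2560 CPM, Mir7-2 at 77.2 and 159 CPM, and Mir7-1 at 49.1 and 55.5 CPM.

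Together the 3 genes held 8104 counts in replicate 1 and 7417 in replicate 2, which is 0.269% and 0.231% of counted reads (mean 0.250% ± 0.0265, SD, n = 2). Within the family Mir7b made up 95.3% (exact 95% interval 94.8 to 95.7) in replicate 1 and 90.7% (90.0 to 91.4) in replicate 2. Mir7-2 made up 2.88% (2.52 to 3.26) and 6.89% (6.32 to 7.49), and Mir7-1 1.83% (1.55 to 2.14) and 2.40% (2.06 to 2.77). The pair that shares miR-7a-5p thus held 381 and 689 counts in all, 4.70% and 9.29% of the family. These shares describe counted reads, and with multi-locus reads left out they are not the ratio of mature miR-7b to miR-7a.

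Ratios of 2 genes within a library need no library size. Mir7b had 33.1 counts for each count of Mir7-2 in replicate 1 (exact 95% interval 29.1 to 37.9) and 13.2 in replicate 2 (12.0 to 14.4). This ratio moved 2.52-fold between the libraries, more than counting error. The ratio of Mir7b to Mir7-1 was 52.2 (44.3 to 61.8) and 37.8 (32.6 to 44.1), a move of 1.38-fold. Mir7-2 exceeded Mir7-1 by 1.57-fold in replicate 1 (1.28 to 1.95) and 2.87-fold in replicate 2 (2.42 to 3.42). The order Mir7b, Mir7-2, Mir7-1 thus held in each library. It also held per nucleotide of hairpin, with 2306 and 1889 CPM per 100 nt for Mir7b, 79.6 and 164 for Mir7-2, and 45.4 and 51.4 for Mir7-1. The hairpins have 111, 97 and 108 nt in that order, too close in length for this scaling to reverse the ratios. The lowest values of Mir7-2 and the highest of Mir7-1 are 77.2 and 55.5 CPM, a gap of less than the SD of Mir7-2.

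The libraries were compared gene by gene after TMM scaling, a correction for composition, with a two-sided exact binomial test over the 496 genes that summed to 10 counts or more and Benjamini-Hochberg adjustment over all of them. The test weighs counting error alone and compares libraries, not conditions. It called 56.5% of all genes, 25.8% toward replicate 2 and 30.6% toward replicate 1, so a call says little about a single gene. Among the Mir7 genes 2 of 3 were called, in opposite directions.

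Mir7-2 was 1.76-fold higher in replicate 2 (log2 ratio 0.82, 95% counting interval 0.59 to 1.04, adjusted exact binomial p = 7.1e-13). Of 58 other genes within 2-fold of its level, 13 were at least as far apart between the libraries and 84.5% were called. Mir7b was 1.43-fold higher in replicate 1 (log2 ratio -0.52, interval -0.56 to -0.47, adjusted exact binomial p = 1.02e-101). Of 55 genes within 2-fold of its level, 23 were at least as far apart, and all 55 were called. For Mir7-1 the log2 ratio was -0.052 (interval -0.37 to 0.27, adjusted exact binomial p = 0.85), and 62 of 64 genes near its level were at least as far apart. The summed family counts had a log2 ratio of -0.45 (interval -0.49 to -0.40). For scale, the median absolute log2 ratio was 0.42 over 231 genes at 50 CPM or more, so Mir7-2 and Mir7b lay above that typical distance and Mir7-1 below it.

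TMM scaling moved log2 ratios by -0.23 relative to library totals. With library totals Mir7-1 turned to a log2 ratio of 0.18 (adjusted exact binomial p = 0.39), Mir7-2 moved to 1.04 and Mir7b to -0.29, both still called and with their directions kept.

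**Figure D3:**
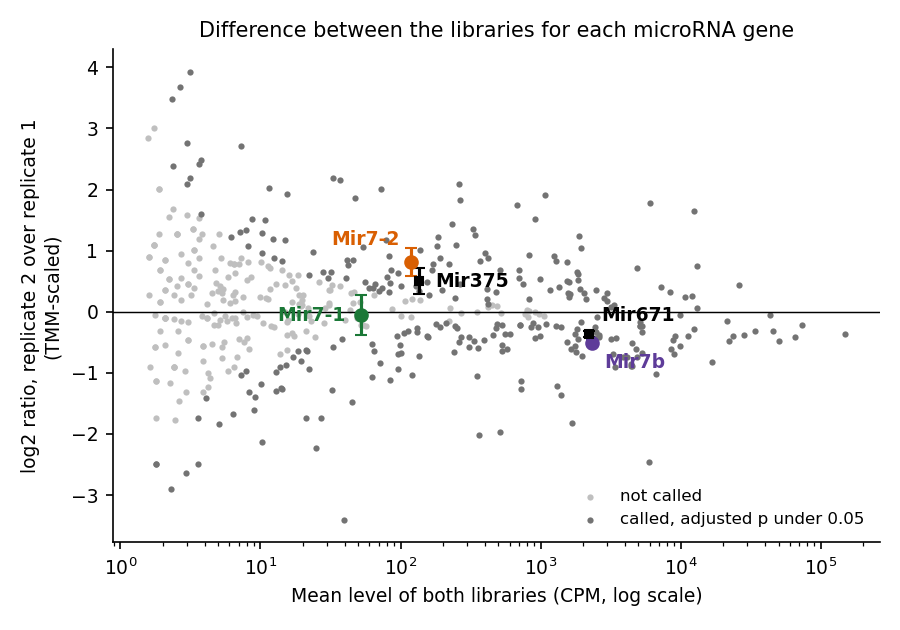
The log2 ratio of replicate 2 over replicate 1 (TMM-scaled) against the mean level in CPM on a log axis, 1 point per gene with a count in both libraries, with dark points called at adjusted p under 0.05. Coloured circles are the Mir7 genes and black squares Mir671 and Mir375, with 95% counting intervals. Mir7-2 lies at 0.82, Mir7-1 at -0.052 and Mir7b at -0.52.

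Of the microRNA genes tied to miR-7 by background knowledge, Mir671 was close to Mir7b in level. Mir671, whose product directs the cleavage of Cdr1as, had 6998 and 6779 counts, or 2319 and 2112 CPM (mean 2216 ± 147 CPM, SD, n = 2). By mean level it was at rank 64, next to Mir7b at rank 63, which ranked 57 in replicate 1 and 71 in replicate 2. Like Mir7b, Mir671 was higher in replicate 1 (log2 ratio -0.36, adjusted exact binomial p = 1.16e-48). It is among the 55 genes within 2-fold of Mir7b in level, all of which were called in 1 direction or the other. Mir375, which is known beside miR-7 from islet and pituitary cells, had 306 and 540 counts, or 101 and 168 CPM. It was higher in replicate 2 (log2 ratio 0.50, adjusted exact binomial p = 2.8e-06), as was Mir7-2. Of the 58 genes within 2-fold of Mir7-2 in level, Mir375 among them, 84.5% were called. Whether these pairs shift together was not tested.

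The other genes known from endocrine cells were lower than Mir375. Of the 6 listed, Mir375, Mir217 and Mir200c were detected, and the list summed to 127 CPM in replicate 1 and 186 CPM in replicate 2, of which Mir375 gave most. Mir217 had 22 and 14 counts and Mir200c 48 and 37, neither called, while Mir216a and Mir216b had 2 to 4 counts per library and Mir141 had 0 in both, which allows up to 0.994 and 0.935 CPM. The part of endocrine cells in the higher Mir7-2 count of replicate 2 was not tested.

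The label of the family as neuronal was set beside the microRNA genes known from neurons. Of 18 such genes 15 were detected, and they summed to 223582 and 212432 CPM, led by Mir139 at 148859 ± 9844 CPM. Mir7b lay below 7 of them, among them Mir132 at 34178 ± 1376 CPM and Mir138-2 at 2602 ± 195 CPM, and above Mir598 at 1961 ± 465 CPM. Mir7-2 and Mir7-1 lay at 118 and 52.3 CPM, and 4 of the 18 genes lay below Mir7-1. Those 4 are Mir218-1 with 52 and 63 counts and the 3 Mir124a genes, which encode a defining microRNA of neurons, with 0 to 9 counts per library. All 4 share 20-nt windows with other counted hairpins. Each Mir124a gene shares 24 to 30 windows, all with the other Mir124a genes, and Mir218-1 shares 3 with Mir218-2. Multi-locus reads are outside these counts, so low counts here need not be low levels of miR-124 or miR-218. Shared windows are not particular to these 4 genes. Mir128-1, Mir128-2, Mir129-1, Mir129-2, Mir138-1, Mir138-2 and Mir218-2 also share 3 to 9 windows each with their copies, at 130 to 13186 CPM. The part of shared reads in any of these levels was not tested. Between the libraries the neuron genes split, as 6 of 16 tested were called toward replicate 2 and 8 toward replicate 1 (median log2 ratio -0.13). Over all 496 tested genes the shares in these directions were 25.8% and 30.6%. With library totals in place of TMM, 6 neuron genes were called toward replicate 2 and 5 toward replicate 1, and their median turned to 0.094. Library totals called 282 of all 496 genes, in either direction. The list spans nearly the whole range of levels in the tables, so a level within it does not bear on the label, and whole tissue cannot say which cells the Mir7 reads came from.

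Glial, immune and vascular genes differed between the libraries as well. The 3 astrocyte genes and the 5 microglia and immune genes were all called higher in replicate 1 after TMM scaling, with median log2 ratios of -0.47 and -0.56, beside -0.52 for Mir7b. Over all tested genes 30.6% were called in that direction. With library totals the 3 astrocyte genes and 3 of the 5 immune genes kept that call, while Mir155 lost it (adjusted exact binomial p = 0.065) and Mir146 turned to a log2 ratio of 0.0074 (adjusted exact binomial p = 0.92). The 3 oligodendrocyte genes were all called higher in replicate 2, as were 25.8% of all tested genes. Of these 3, Mir219a-1 had 3 and 17 counts and was below the detection limit. Mir338 had a log2 ratio of 0.65 and Mir219a-2 of 0.23, beside 0.82 for Mir7-2. The endothelial and mural genes were split, with Mir126a higher in replicate 2 (log2 ratio 0.40) and Mir143 (-0.89) and Mir145a (-1.97) higher in replicate 1. The oligodendrocyte, endothelial and mural calls were the same with library totals. The part of tissue makeup in the Mir7 ratios was not tested.

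**Figure D4:**
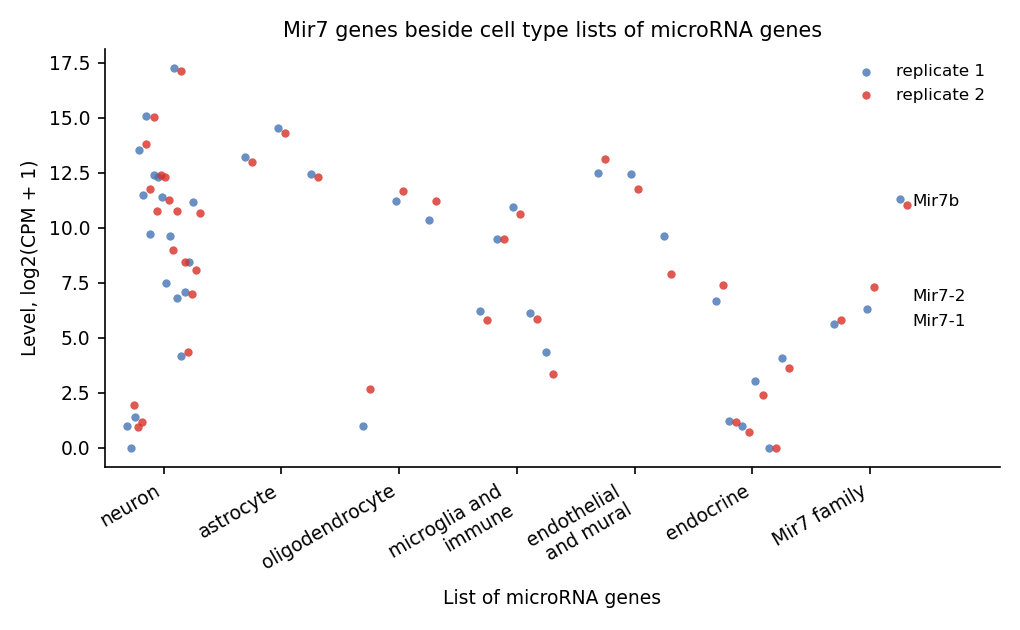
Levels as log2(CPM + 1) in both libraries for the genes of 6 cell type lists and for the Mir7 family, 1 point per gene and library. Mir7b stands among the upper neuron genes, and Mir7-2 and Mir7-1 stand in the lower part of that list. Reads shared between gene copies, which both high and low genes of the list have, are not counted.

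The genes nearest to each member in level were found by their distance in log2(CPM + 1) over the 2 libraries, which describes level alone. Nearest to Mir7b were Mir760 with 7864 and 7262 counts (distance 0.11), Mir671 (0.14) and Mir181d with 7730 and 7625 counts (0.18). Nearest to Mir7-2 were Mir136 of the imprinted Dlk1-Dio3 locus with 246 and 620 counts (0.29), Mir6540 with 301 and 501 (0.37) and Mir574 with 236 and 395 (0.37). All 3 neighbours of Mir7-2 also had more counts in replicate 2, which the measure of distance favours. Nearest to Mir7-1 were Mir679 with 156 and 167 counts (0.12), the liver microRNA gene Mir122 with 141 and 164 (0.13), and Mir18 of the miR-17 cluster with 163 and 174 (0.14).

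Genes whose mature strand recurs elsewhere, as in Mir7-1 and Mir7-2, are a class of their own in a table without multi-locus reads. Of 1018 counted genes with a RefSeq entry of the same name, 94 have a mature strand identical to that of another gene, and 45 of them (47.9%) were detected with a median of 80.6 CPM. Of the other 924, 311 (33.7%) were detected, with a median of 120 CPM. Mir7-1 lay below both medians and Mir7b above both. Mir7-2 lay between them on average, but in replicate 1 it was at 77.2 CPM against a median of 80.5 CPM for the 45 genes, and in replicate 2 at 159 CPM against 102 CPM.

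The predicted folds of the 3 hairpins (RNAfold minimum free energy) were -46.8 kcal/mol for Mir7-1 with 44 base pairs, -40.5 for Mir7-2 with 36 and -35.0 for Mir7b with 36. In the fold of Mir7-1, 20 of 23 bases of the 5p strand were paired, against 19 of 23 in Mir7-2 and 17 of 24 in Mir7b. The member with the most counts thus had the least negative predicted energy, in a family of 3 where this is a description alone.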

How the data were processed

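Read counts per microRNA gene were deposited by the authors without normalization, 1 table per library, on mm10 with GENCODE M21 per the file headers and accompanying notes. Neither aligner nor counter is named in the labels or notes. The roles of the columns (either strand, own strand, opposite strand) were read from the values. Own-strand counts were used, and the 4 read classes that name no gene were left out of library sizes.

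Names and positions came from GENCODE M21, sequences from RefSeq (GRCm38.p6). All 3 hairpins had the same coordinates and sequence in both. Strands were searched for in the 2202 counted hairpins and, for exact matches, in 141767 GENCODE transcripts, where no gene outside those counted held one. The genome itself was not searched.

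Intervals are exact, at 95%, and cover counting error only, meaning the sampling of reads. Amplified reads without molecular identifiers are not independent molecules, so the intervals do not give the error in molecules. With 2 libraries of 1 group, a fit across groups was not possible. The exact binomial test used TMM sizes from edgeR 4.0.16 in R 4.3.3. It was tried on simulated counts with Poisson noise alone and known library sizes. That trial cannot show how the test behaves under spread between replicates or with TMM sizes. edgeR's common dispersion with an intercept alone gave a biological coefficient of variation of 36.7%. Alternatives were the either-strand column, all reads as denominator, library totals, DESeq2 1.42.0 size factors, other count minimums, levels per nucleotide, other pseudocounts and leaving out each replicate. Python 3.11.15, numpy 2.4.6, pandas 2.3.3, scipy 1.17.1, matplotlib 3.10.9 and RNAfold 2.7.2 were used.

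The members and lists were chosen with earlier results of these data known. Genes named were the members, the 3 nearest to each in level, Mir671 and Mir375, genes with the same seed and genes of the cell type lists.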

Additional observations from a re-analysis of the deposited data

How the results depend on the processing

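With all reads as the denominator, levels were lower by construction, at 18.3 CPM for Mir7-1, 41.2 for Mir7-2 and 817 for Mir7b, and the family share was 0.0876%. Ranks moved as well. Per nucleotide of hairpin Mir7b fell to rank 78 and Mir7-1 to 235. With the either-strand column Mir7-1 rose to rank 210 and Mir7-2 to 177, though their own counts were unchanged and the library totals were lower. With library totals the log2 ratio of Mir7-1 turned to 0.18 and that of the summed family moved to -0.22, and with the either-strand column the latter moved to -0.40. The order of the 3 genes and the calls for Mir7-2, Mir7b and Mir7-1 kept their direction and side of the threshold under the alternatives run, except that sign of Mir7-1. Within a library the order could not change with another denominator or size factor, which scale all genes alike. Nor could it change with the either-strand column, where the counts of the 3 genes are the same. No alternative adds multi-locus reads to the gene counts. The planned search of the genome was not run, and counted hairpins and transcripts were searched in its place, a choice made after the files were seen. The medians within each library and the cell type lists with library totals were also added after the data were seen. With 1 mismatch allowed, miR-7b-5p matched 3 hairpins in place of 1. Leaving out a replicate could not be done for ratios between replicates. Depth limits Mir7-1 most, with 148 and 178 counts.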
